A study of Homo sapiens with 2 samples.

Results

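The annexins are calcium-dependent membrane-binding proteins, and 10 of their genes were described here in AGS cells, an epithelial line from a human gastric adenocarcinoma, after galectin-3 was silenced with siRNA, a double-stranded RNA that directs the breakdown of a matching messenger RNA. The 10 genes were taken as a named list, ANXA1, ANXA2, ANXA3, ANXA4, ANXA5, ANXA6, ANXA7, ANXA9, ANXA10 and ANXA11, with every probe set that the platform annotation gave to one of them alone. These were 20 of 54675 probe sets and 10 of 19775 named genes. The family was chosen by the log2 ratios of these same 2 arrays, because some members went opposite ways, so the values below are a description and no test was made on them. There were 2 one-colour Affymetrix arrays, 1 of AGS cells with galectin-3 silenced and 1 of control AGS cells. The treatment of the control cells, the duration of silencing and the number of cultures behind each array are not stated in the labels. With 1 array per group there is no replicate error and no p-value can be given, so the precision of each value is limited by the number of arrays.

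An annexin has a conserved core of repeats that binds acidic phospholipids when calcium is present, and a variable amino-terminal tail through which several members bind S100 proteins. Members attach to the inner face of the plasma membrane and to endosomes and secretory vesicles, where they take part in vesicle traffic, membrane repair and the anchoring of actin. In stomach, ANXA10 is known as a gene of gastric epithelium, and ANXA1 and ANXA2 are widely studied in gastric cancer.

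The signal of a probe set is the MAS5 intensity on a linear scale, with both arrays brought to the same mean. Probe sets of olfactory receptor genes, 135 in number, served as background, and the 95th percentile of their signals was taken as the floor, 109.5 on the silenced array and 138.4 on the control array. A ratio is silenced over control. Where a probe set passed the floor on 1 array only, the other signal was raised to the floor and the fold is a bound. The arrays' labels were checked first on the targeted gene. LGALS3, which encodes galectin-3, had a signal of 2699.8 on the silenced array, against 20206 on the control array, a log2 ratio of -2.90. Of 6 epithelial markers, 5 were above the floor on both arrays and KRT7 on the silenced array only, with a summed signal of 103476 in silenced and 86126 in control cells. None of 6 gastric epithelial markers (MUC5AC, MUC6, TFF1, TFF2, CLDN18 and GKN1) was above the floor on either array, nor was any of the 5 leukocyte markers on the array. Of 6 fibroblast markers 2 were above it, COL1A1 and PDGFRA, and of 4 endothelial markers PECAM1 alone, on the silenced array only. These 2 went opposite ways, PDGFRA with 921.1 in silenced and 2295.8 in control cells, 2.49-fold lower, and COL1A1 with 1502.0 in silenced and 816.3 in control cells, 1.84-fold higher. The summed signal of the fibroblast markers was 2561.7 in silenced and 3291.5 in control cells, and that of the endothelial markers 148 in silenced and 204.1 in control cells. Both sums include markers under the floor on both arrays, 4 fibroblast and 3 endothelial ones. PECAM1 itself had 121 in silenced and 127.4 in control cells. The part of the fibroblast and endothelial markers in the annexin values was not tested.

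ANXA9 and ANXA6 were higher after silencing, and ANXA10 was lower. Among the annexins above the floor on both arrays ANXA9 had the largest difference, while ANXA6 and ANXA10 have bounds and cannot be ranked against it. By a rule of size of 2-fold, 2 of the 9 annexin genes with a signal above the floor were higher and 1 was lower. Over all 10514 genes measured, 3.31% were higher by that rule and 3.07% lower. Since the family was chosen with these ratios known, nothing is read from the excess over that background. The other 6 measured genes were within 2-fold, and ANXA5 gave no ratio. In a bulk sample such as this, fewer cells that use a gene and less RNA per cell cannot be told apart.

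**Figure D1:**
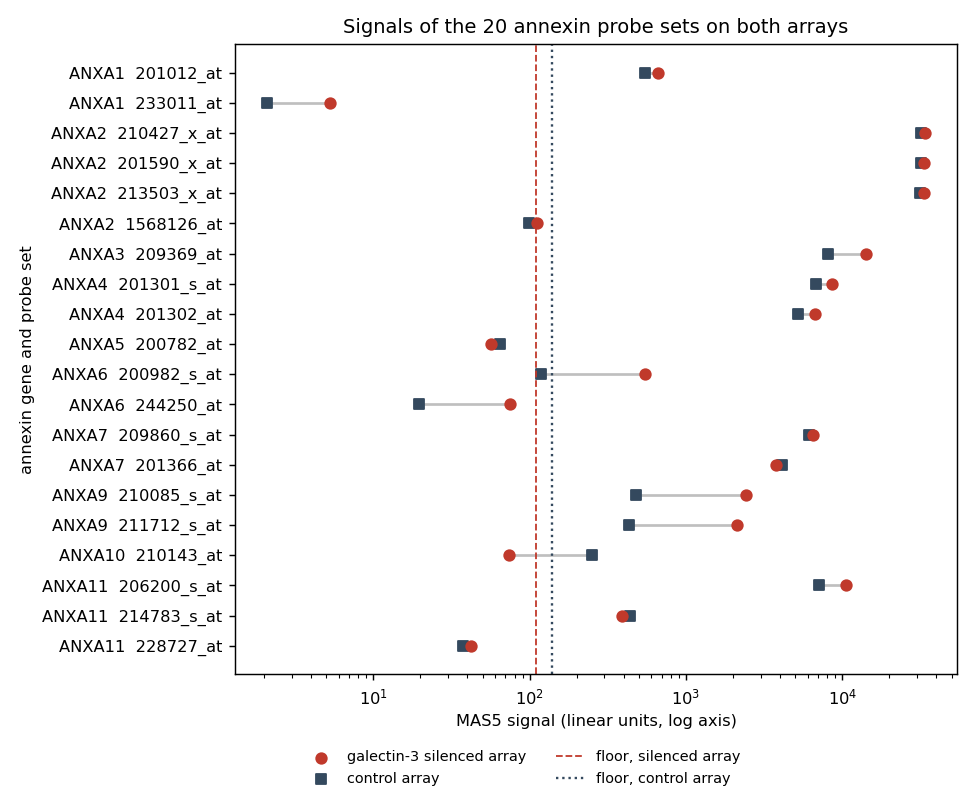
MAS5 signal of each of the 20 annexin probe sets (horizontal log axis, linear signal units) on the galectin-3 silenced array (circles) and the control array (squares), with the floor of each array as a dashed or dotted line. The largest gaps above the floor are those of ANXA9, ANXA6 and ANXA10. Signals of different probe sets are not comparable with each other.

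ANXA9 belongs to the annexins with an atypical core, in which the calcium-binding sites of the other members are not conserved. Its stronger probe set had a signal of 2418.1 on the silenced array, against 477.9 on the control array, which is 5.06-fold higher. The other probe set gave 2111.3 in silenced and 434.5 in control cells, or 4.86-fold. Both were well above the floor on both arrays, and their log2 ratios of 2.34 and 2.28 lay closer together than the spread between probe sets of the same gene over all genes, an SD of 0.32 in 4728 genes. This SD is taken around the mean of each gene's probe sets, so a gap between 2 of them is not the same measure. It compares probe sets on the same RNA and says nothing of repeat cultures. Only 5 of the 9579 genes above the floor on both arrays had a higher ratio than ANXA9. These genes were split into 5 equal bins by mean signal. In the bin of ANXA9, which held 1915 genes with a robust SD of the ratios of 0.44, 4 genes including ANXA9 had a ratio that high. Both ANXA9 probe sets are of the _s_at kind, which can match more than 1 transcript, so a value from a probe set of ANXA9 without that suffix could not be had.

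ANXA6, an annexin with a duplicated core that is linked to endosomes and cholesterol transport, was also higher. Its stronger probe set had a signal of 543.4 on the silenced array, against 118.3 on the control array. Because the control signal was under the floor, the difference is at least 3.93-fold, a log2 bound of 1.97. Another ANXA6 probe set gave 75.1 in silenced and 19.7 in control cells. Both of these lie under the floor, so no ratio is given for it. With a floor set 2 times higher the bound for ANXA6 was 1.96-fold, just short of the rule of size.

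ANXA10, which like ANXA9 has an atypical core and is known from gastric epithelium, went the other way. Its only probe set had a signal of 74.0 on the silenced array, against 250.6 on the control array. The silenced signal was under that array's floor of 109.5, so the difference is at least 2.29-fold lower. The signals themselves, taken without a floor, put silenced cells at 29.5% of control. The bound was not past 2-fold with a lowess curve restricted to probe sets above the floor, where the log2 value was -0.93, and with a floor 2 times higher the gene was under it on both arrays. The log2 ratio of ANXA9 lay above that of ANXA10 by at least 3.53. This gap is the one for which the pair was chosen.

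**Figure D2:**
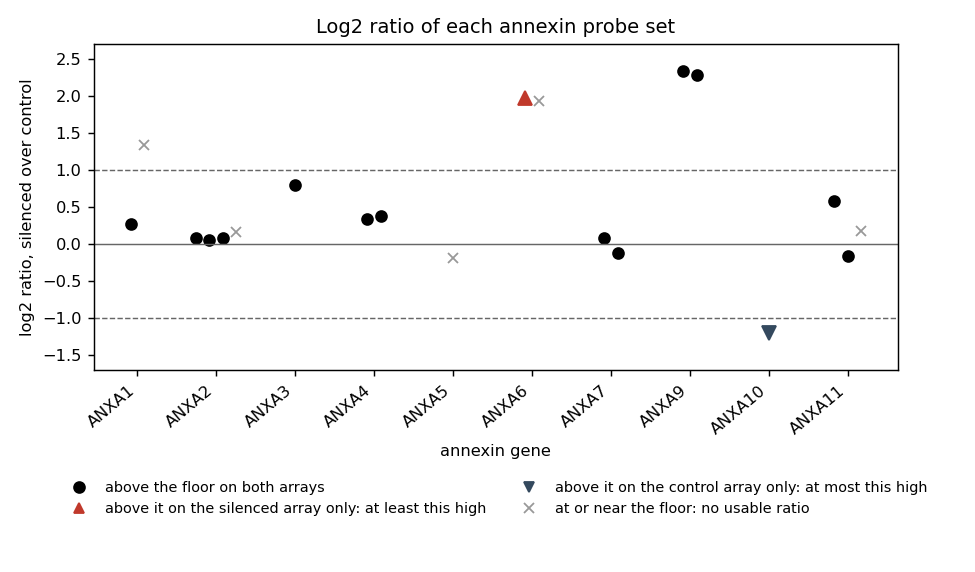
Log2 ratio of silenced over control signal for each annexin probe set, by gene, with dashed lines at 2-fold. Circles passed the floor on both arrays, triangles are bounds, and grey crosses had no usable ratio; ANXA9 and ANXA6 lie above the upper line and ANXA10 below the lower.

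The stretch of 250 bases before the transcription start is shown for these 3 genes, because they are the members past 2-fold and lie on different sides of it. The sequences are those of RefSeq for GRCh38.p14, written 5′ to 3′ on the strand of the gene. They are chr1:150982042-150982291 on the plus strand for ANXA9, chr5:151157780-151158029 on the minus strand for the first of the 2 ANXA6 starts, and chr4:168092287-168092536 on the plus strand for ANXA10. Capitals mark matches to TATAAA, the core of a TATA box, to GGGCGG, a GC box, or to GAAA repeated after any 2 bases, the core of an interferon-stimulated response element, on either strand. No matches overlap in these 3 stretches.
ANXA9: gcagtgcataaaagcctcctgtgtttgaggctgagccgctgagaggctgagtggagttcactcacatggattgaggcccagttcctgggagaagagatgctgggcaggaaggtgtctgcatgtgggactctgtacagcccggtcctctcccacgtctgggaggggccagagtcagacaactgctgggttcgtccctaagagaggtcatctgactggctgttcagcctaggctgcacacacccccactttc
ANXA6: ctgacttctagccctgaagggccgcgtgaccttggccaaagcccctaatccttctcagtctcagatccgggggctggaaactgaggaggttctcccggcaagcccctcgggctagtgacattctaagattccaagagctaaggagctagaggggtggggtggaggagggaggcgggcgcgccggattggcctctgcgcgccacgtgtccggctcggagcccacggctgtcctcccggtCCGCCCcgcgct
ANXA10: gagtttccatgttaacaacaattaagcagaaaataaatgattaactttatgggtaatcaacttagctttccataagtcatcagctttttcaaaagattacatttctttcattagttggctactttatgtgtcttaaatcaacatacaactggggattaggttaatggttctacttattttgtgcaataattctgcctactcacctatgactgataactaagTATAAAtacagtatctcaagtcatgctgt
The ANXA10 stretch is the poorest in G and C among those of the 10 listed genes, at 31.2%. It has 0 CpG pairs and a TATAAA match at 29 to 24 bases before the start. Of all 35116 promoter stretches in the table, 2.16% had a lower share of G and C. The ANXA9 stretch has 58.0% G and C, the median of all promoters, 4 CpG pairs and no match to any of the 3 motifs. The ANXA6 stretch has 65.6% G and C, 19 CpG pairs and 1 GGGCGG match, on the minus strand, at 12 to 7 bases before the start. The other ANXA6 start has 56.4% G and C, 10 CpG pairs and, like ANXA9, no match to any of the 3 motifs before it. Which of its starts ANXA6 used in these cells is not known from the arrays.

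The table held 14 promoter stretches for the 10 annexin genes, of which ANXA4 and ANXA6 have 2 each and ANXA11 has 3. TATAAA was found in 4 of the 14, against 10.7% of all promoters. Besides ANXA10 these were ANXA1 and ANXA2, each with the match at 31 to 26 bases before the start, and the most upstream ANXA11 start. The members with this motif had no common direction. ANXA10 was lower, while the ratios of ANXA1, of ANXA11 and of the ANXA2 probe sets of the _x_at kind were within 2-fold. GGGCGG was found in 7 of the 14, against 42.6% of all promoters, and the repeated GAAA in 0 of the 14, against 3.02%. A match is only a match of letters, and its absence from this window says nothing of binding.

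ANXA3, a member abundant in neutrophils and also expressed in epithelia, had a signal of 14172 on the silenced array, against 8152.2 on the control array. This is 1.74-fold higher on its only probe set, short of 2-fold. A ratio at least as high was found in 74 of the 1916 genes of the highest signal bin, where ratios had a robust SD of 0.33. With a rule of 1.5-fold ANXA3 joined ANXA9 and ANXA6 as a further higher member, beside 10.6% of all genes, and the lower side still held ANXA10 alone, beside 10.4%.

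ANXA11, which binds the S100 protein S100A6 and the calcium sensor PDCD6 and ties RNA granules to lysosomes, gave no single answer. The probe set with the strongest signal had 10609 on the silenced array, against 7112.7 on the control array, 1.49-fold higher. A weaker probe set had 391.6 in silenced and 437.8 in control cells, a log2 ratio of -0.16. The remaining probe set did not reach the floor on either array. The probe sets above the floor thus stood on different sides of 0 and 0.74 apart on the log2 scale. This was the widest gap within any listed annexin gene. A gap is not the same measure as the SD of 0.32 between probe sets of a gene in general.

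ANXA4, an annexin of epithelial cells that binds to secretory vesicles, was slightly higher on both of its probe sets. The first had a signal of 8604.1 in silenced and 6791.8 in control cells, and the second 6711.9 and 5173.2. Their log2 ratios were 0.34 and 0.38. A ratio at least as high as the first was found in 308 of the 1916 genes of the same bin, so ANXA4 did not stand apart from the spread of genes with similar signals.

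ANXA1, a glucocorticoid-regulated protein that inhibits phospholipase A2 and acts outside the cell through formyl peptide receptors, had a signal of 660.1 on the silenced array, against 546.9 on the control array. Its log2 ratio of 0.27 was inside the robust SD of 0.48 for genes of similar signal. A second probe set of ANXA1, with 5.3 in silenced and 2.1 in control cells, was far under the floor. ANXA7, or synexin, which promotes the fusion of chromaffin granules, had 6468.0 in silenced and 6084.3 in control cells on 1 probe set and 3772.0 in silenced and 4097.9 in control cells on the other. Their log2 ratios of 0.09 and -0.12 stand on either side of 0, and ANXA7 has no settled direction.

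ANXA2 binds S100A10 in a tetramer at the plasma membrane, where the complex takes up plasminogen and its activator. Its 3 probe sets of the _x_at kind gave nearly the same signals on each array. They were 33573, 33196 and 33264 on the silenced array, against 31821, 32009 and 31263 on the control array in the same order. The log2 ratios ran from 0.05 to 0.09, so these probe sets differed little between the arrays. Their signals were high, where the highest of any probe set was 52349 on the silenced and 54209 on the control array. Whether this narrowed the ratios was not tested. Probe sets of this kind can pick up near-identical sequences, and ANXA2 has processed pseudogenes. The probe set annotated to the pseudogene ANXA2P2 had 17077 in silenced and 13635 in control cells, and signal from the gene and from this copy cannot be told apart. The remaining probe set named for ANXA2 alone had 110.6 in silenced and 98.7 in control cells. It stood for the gene under the rule that sets _x_at probe sets aside, and being at the floor it had no direction. A further probe set annotated to both SNU13 and ANXA2 named no gene and was not counted.

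ANXA5, known for its binding to phosphatidylserine on dying cells, was under the floor on both arrays. Its only probe set had a signal of 56.3 in silenced and 64.3 in control cells. No ratio is given for it, and a low signal of 1 probe set does not show that the gene is silent.

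**Figure D3:**
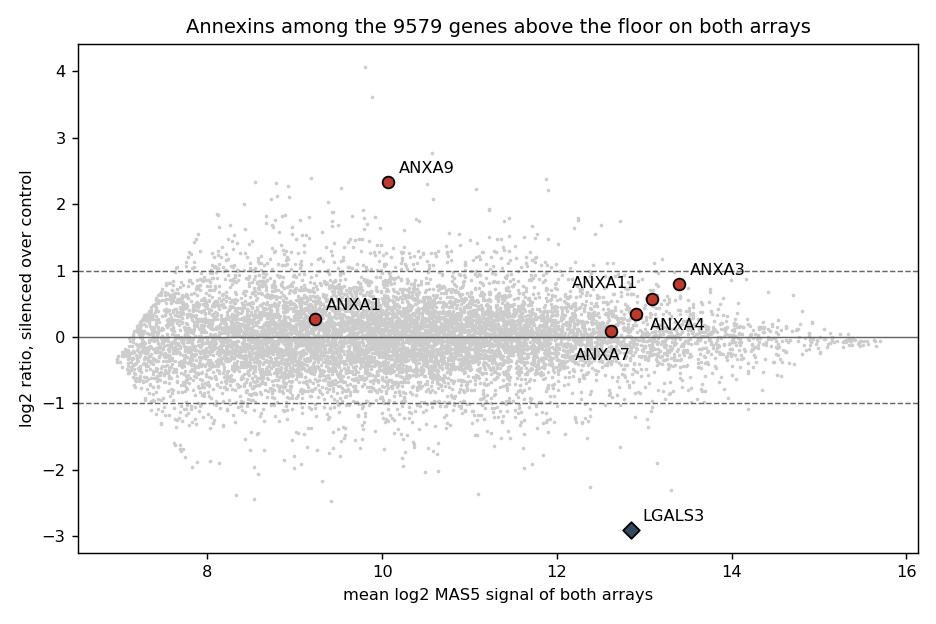
Log2 ratio of silenced over control signal against the mean log2 signal of both arrays for the 9579 genes above the floor on both (grey), with the 6 annexins among them as circles and LGALS3 as a diamond; dashed lines mark 2-fold. ANXA9 lies near the upper edge of the cloud at 2.34, and the other 5 annexins lie inside it between 0.09 and 0.80.

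The 6 annexin genes above the floor on both arrays all had a ratio above 0 on the probe set that stood for them, where 48.9% of the 9579 such genes did, and nothing is read from this in a family chosen on these ratios. Only ANXA9 of these 6 was past 2-fold. The median log2 ratio of the 9 measured members, with bounds kept at their bound, was 0.34, against -0.02 over all 10514 genes. ANXA2, which had no direction, entered this median with its control signal raised to the floor. The members' direction depended in part on how the arrays were scaled. When arrays were scaled on the poly-A controls, which put the median of all genes at -0.25, ANXA7 was at -0.15 and an ANXA2 probe set of the _x_at kind at -0.18, while ANXA1 was at 0.04. Under the 11 alternatives fixed for the single genes, ANXA9 ran from 2.11 to 2.52 wherever it had a value, ANXA3 from 0.56 to 0.98 and ANXA4 from 0.11 to 0.52. ANXA10 stayed below 0, between -1.76 and -0.93, wherever it had a value.

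**Figure D4:**
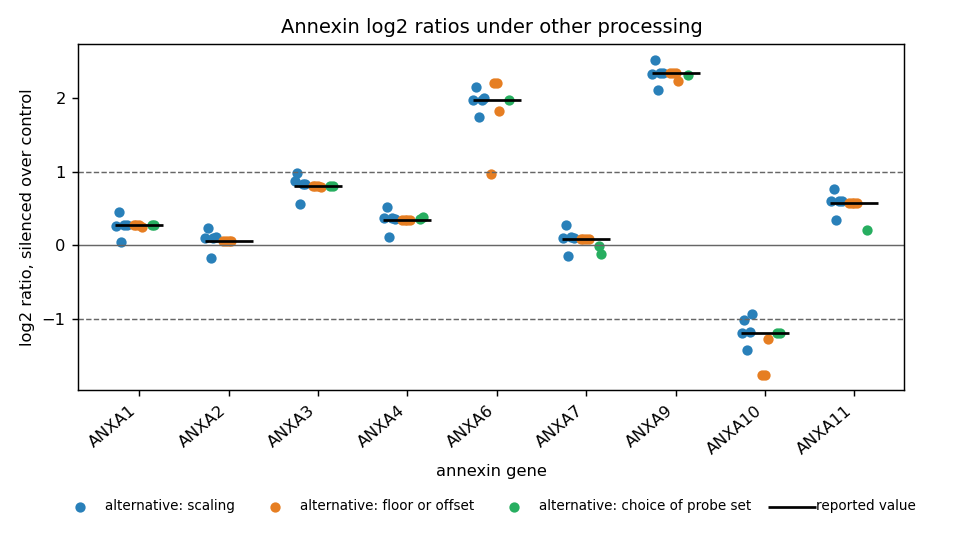
Log2 ratio of silenced over control for each measured annexin gene as reported (black bar) and under other scalings, floors or offsets and choices of probe set (coloured points); dashed lines mark 2-fold. ANXA9 stays above 2 and ANXA10 below 0 wherever they have a value, while ANXA7 and ANXA2 have points on both sides of 0.

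Proteins that work with annexins were read from a list of 16 partners and receptors, 13 of which had a signal above the floor. Of these 1 was at least 2-fold higher and 0 lower, beside 3.31% and 3.07% of all genes, and their median log2 ratio was 0.03, against -0.02 over all genes. That median is the value of FPR3, a bound set by the floor. Over the 10 partners above the floor on both arrays the median was 0.01. The higher gene was PLAT, the tissue plasminogen activator that binds the complex of ANXA2 and S100A10. It had a signal of 429.2 on the silenced array, against 118.4 on the control array, at least 3.10-fold higher. The control signal was under that array's floor of 138.4, so the value is a bound. Against a floor 2 times higher, 276.8 on the control array, the bound for PLAT falls short of 2-fold. PLA2G4A, the cytosolic phospholipase A2, had 659.4 in silenced and 1310.2 in control cells, and its log2 ratio of -0.99 did not reach 2-fold.

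The S100 partners differed little between the arrays on their strongest probe sets. S100A10, the partner of ANXA2, had a signal of 40962 in silenced and 44405 in control cells. S100A11, the partner of ANXA1, had 28380 and 26296, and S100A6, a partner of ANXA11, had 41702 and 40497. The log2 ratios of these probe sets lay between -0.12 and 0.11. A weaker S100A6 probe set had 303.9 in silenced and 229.5 in control cells, a log2 ratio of 0.41. A weaker S100A10 probe set was at -0.14. The strongest S100A10 and S100A6 signals were near the highest of any probe set, 52349 on the silenced and 54209 on the control array. Whether this narrowed their ratios was not tested. PDCD6 was at -0.02. The membrane repair proteins MYOF and DYSF stood on different sides of 0, at 0.53 and -0.76. The other 2 MYOF probe sets gave log2 ratios of 0.78 and 1.06, the higher of them past 2-fold. The ANXA1 receptor gene FPR2 was under the floor on both arrays, FPR1 was at the floor, and FPR3 passed it on the silenced array only.

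Copines, synaptotagmins and their relatives were read from a list of 25 genes, named here as other calcium-dependent membrane-binding proteins. Whether each of them needs calcium to bind membranes was not examined. Of the 25 genes, 15 were above the floor on both arrays. Among these 1 was at least 2-fold higher and 0 lower, beside 3.31% and 3.07% of all genes measured, and the median log2 ratio was 0.07, against -0.02 over all genes. The higher gene was SYTL2, a synaptotagmin-like protein that binds the vesicle GTPase RAB27. It had a signal of 4233.4 on the silenced array, against 1529.0 on the control array, 2.77-fold higher. Its other 2 probe sets gave 3.18-fold and 3.16-fold. CPNE7 had 116.3 in silenced and 229.6 in control cells, a log2 ratio of -0.98, and CPNE2 had 852.0 and 1507.9, a log2 ratio of -0.82. Neither copine was past 2-fold, and the silenced signal of CPNE7 was little above that array's floor of 109.5. On the higher side, NEDD4L was at 0.80 and UNC13B at 0.76. Weaker NEDD4L probe sets that passed the floor on the silenced array only had bounds of 1.16, 0.87 and 0.72, the first past 2-fold.

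**Figure D5:**
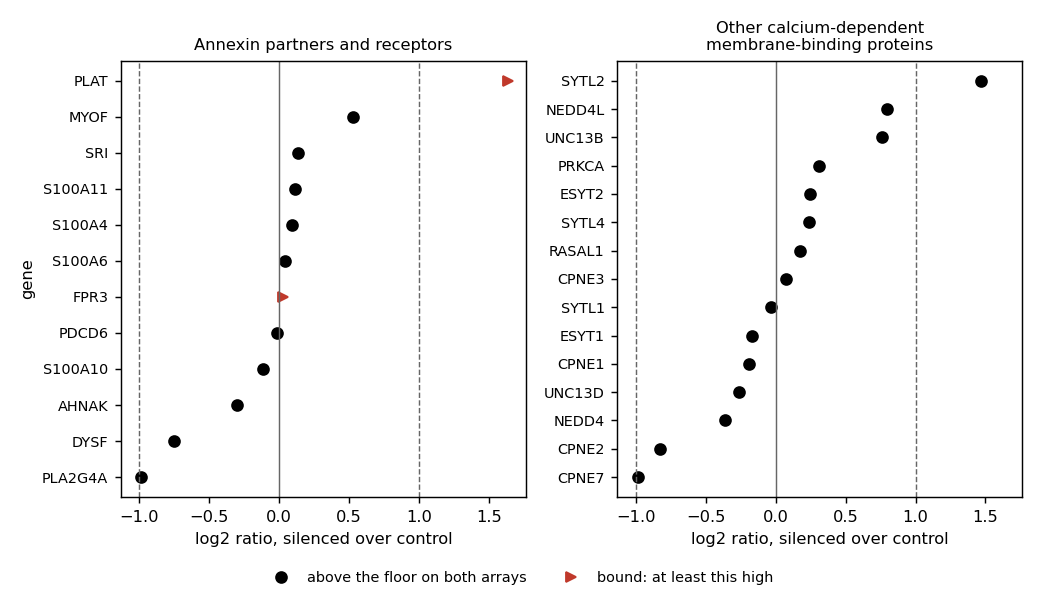
Log2 ratio of silenced over control for the genes with a ratio in the list of annexin partners and receptors (left) and in the list of other calcium-dependent membrane-binding proteins (right); dashed lines mark 2-fold and arrowheads are bounds. On the probe set that stands for each gene, only PLAT, at a bound of 1.63, and SYTL2, at 1.47, are past 2-fold.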

How the data were processed

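Total RNA extracted with Trizol was turned into biotinylated cRNA for Affymetrix arrays of 1 colour, per the labels' protocols. The authors deposited 1 linear intensity per probe set and array, and MAS5 is the tool that the submitters' processing notes name. Its scaling target and filters are not stated there. Both arrays had a 2% trimmed mean of 500.07, so the deposited scaling was kept, which would mask a difference in total RNA per cell.

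Arrays were grouped by title. Probe sets were named from the platform's annotation, 41097 of 54675 with 1 symbol. A gene was read from the probe set strongest in mean log2 signal, leaving out _x_at probe sets where it had another. Signals were raised to the floor of each array and log2 ratios taken, silenced minus control. No test exists with 1 array per group, so 2-fold was used as a rule of size. Signals above background limit what can be seen, since 42.0% of probe sets on the silenced array and 38.4% on the control array passed the floor. Python 3.11.15 with numpy 2.4.6, pandas 2.3.3 and statsmodels 0.14.6 was used. The procedure was tested on simulated data for the recovery of changes planted in genes above the floor on both arrays. Bounds, such as those of ANXA6 and ANXA10, and false calls were not part of that check.

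The members and lists were chosen with earlier results of these data known. Named were all members, LGALS3, and in each list the genes past 2-fold. Further genes were picked with their values in view. Promoter sequences came from RefSeq (GRCh38.p14), matched by symbol for 10 of 10 members. Protein sequences were not used here. Scaling, floor, offset, probe set choice and the rule of size were varied.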

Additional observations from a re-analysis of the deposited data

How the results depend on the processing

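Of 172 values recomputed under 13 alternatives, 160 differed from the reported one by less than the SD of 0.32 between probe sets of a gene, with no change of sign in a list median, or, for counts, by at most 1.5 times. Part of this count was fixed in advance, so it is no measure of robustness. The hybridization and poly-A controls differed between the arrays by -0.18 and 0.23 on the log2 scale, less than that SD. Setting them equal moves every ratio above the floor by no more than that. A changed floor cannot move a gene that stays above it on both arrays. Keeping the _x_at probe sets, and the spread between probe sets under other settings, were added after seeing the data. With a floor 2 times higher the number of annexins at least 2-fold higher was 1 in place of 2, the number lower was 0 in place of 1, the log2 bound of ANXA6 was 0.97, and the median of the other calcium-dependent membrane-binding proteins was -0.033 in place of 0.073. Without _s_at and _x_at probe sets 0 annexins were higher, since ANXA9 and ANXA6 had no probe set left above the floor. With a lowess curve restricted to probe sets above the floor 0 were lower, because the silenced array's floor became 131.4. With the poly-A controls set equal the median of the partners was -0.21 in place of 0.03 and that of the other calcium-dependent proteins -0.16; relative to the median of all genes, -0.25 there, both stayed above 0. Without a floor the widest gap within an annexin gene was 1.06 in place of 0.74, and ANXA10 was at -1.76, as with the array median as the floor. With the median over probe sets ANXA11 was at 0.21. The median of the annexins ran from 0.08 to 0.58 and LGALS3 from -3.14 to -2.72. Setting the hybridization controls equal made 75.9% of all genes past 2-fold higher ones, and setting the poly-A controls equal 22.7%, against 51.9% as reported. The causes of these shifts were not tested unless given. No paired analysis was possible because each group has 1 array.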

Other observations

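The protein-coding genes next to the annexins past 2-fold, in RefSeq's order of gene starts, were read after the annexin values were known. Beside ANXA9 on chromosome 1, the ceramide synthase CERS2 had a signal of 7551.8 in silenced and 6810.7 in control cells, a log2 ratio of 0.15, and MINDY1 had 330.9 and 310.5, a log2 ratio of 0.09. Neither was past 2-fold. Beside ANXA10 on chromosome 4, the interferon-induced helicase DDX60 had 1980.2 in silenced and 915.9 in control cells, a log2 ratio of 1.11, opposite in direction to ANXA10, and SPOCK3 was under the floor on both arrays. Beside ANXA6 on chromosome 5, TNIP1, an inhibitor of NF-kB signalling, had 1506.9 in silenced and 1003.6 in control cells, a log2 ratio of 0.59, and CCDC69 was under the floor on both arrays.

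The probe sets of the other ANXA2 pseudogenes differed little. ANXA2P1 had a signal of 205.5 in silenced and 227.5 in control cells, and ANXA2P3 had 279.1 and 288.4, with log2 ratios of -0.15 and -0.05.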
